A study of Arabidopsis thaliana with 12 samples.

Results

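The response of *linc1-1* seedlings to *Pst hrcC*- was followed across all genes whose FPKM averaged 1 or more in the 6 *linc1-1* libraries of the experiment, 3 from *Pst hrcC*- treated and 3 from mock-treated seedlings. Of the 27371 genes in the table, 16665 met this condition. The line *linc1-1* (SALK_025347) carries a T-DNA insertion in *LINC1* (AT1G67230) in the Col-0 background. This gene encodes a lamin-like protein of the plant nucleus, and both groups share the mutation. Seedlings were 14 days old, were kept in long days at 23 °C on MS plates with no sugar, and were used whole. Treated seedlings had been sprayed with *Pst hrcC*- at an OD600 of 0.002 and were taken after 24 h, and the control group was mock treated. The other 6 of the 12 libraries in the series came from wild type (WT, Col-0) seedlings under the same conditions. They served to ask whether the response differed, to compare levels of a few genes, and in an alternative fit of all 12 libraries. Only 1 mutant line was sequenced, so an effect of the insertion cannot be told apart from other features of that line.

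*Pst hrcC*- is a *Pseudomonas syringae* pv. *tomato* strain that lacks a working type III secretion system, and it therefore exposes plants to bacterial patterns without the effectors that this system injects. Plants read such patterns through surface receptors and answer with pattern-triggered immunity (PTI), and ethylene (ET), jasmonic acid (JA) and salicylic acid (SA) shape the later transcriptional response. In JA signaling the active hormone JA-isoleucine brings the F-box protein COI1 together with JAZ repressors, which are then degraded. This frees MYC2 and related bHLH factors, which bind G-box motifs and drive wound and anti-herbivore genes such as *VSP2*, while ET together with JA drives an ERF branch marked by the defensin *PDF1.2*. Glucosinolates (GS) are sulfur-rich defense compounds of the Brassicaceae, built from methionine (aliphatic GS) or tryptophan (indole GS).

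The values were FPKM, which count sequenced fragments relative to transcript length and library total, and read depth is not known from the files. *LINC1* was at 2.12, 3.76 and 2.41 FPKM in the *Pst hrcC*- libraries (replicates 1, 2 and 3 here and below), against 2.13, 2.09 and 2.17 FPKM in mock. The groups overlapped, and the log2 fold change was 0.24 (SE 0.18, adjusted p = 1.00, limma). All 6 values lay below those of the WT libraries, 17.2 to 28.3 FPKM. Pearson's r across genes between *linc1-1* libraries was 0.897 to 0.943. On the first principal component, with 27.4% of the variance, *Pst hrcC*- replicate 3 and mock replicate 3 lay at 36.3 and 38.2 and the other 4 libraries at −38.5 to 0.25, while the second, with 26.4%, held *Pst hrcC*- libraries at 19.6 to 35.8 and mock libraries at −46.5 to −10.3. Marker genes of green tissue were high in all groups, *RBCS1A* for example at 8743 to 12839 FPKM after *Pst hrcC*- and at 7967 to 11834 FPKM in mock. The green marker *LHCB1.3*, described below, had no signal in *Pst hrcC*- replicate 1 and mock replicate 3. Summed over the green markers, these libraries were at 21532 and 22586 FPKM, against 38689 to 48242 FPKM in the others. Of 7 root markers, 4 were tested, and their summed level was 190 to 239 FPKM after *Pst hrcC*- and 85.8 to 141 FPKM in mock, of which *PYK10* made up 170 to 218 and 67.5 to 122 FPKM. The part of root tissue in the results was not tested.

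Genes that rose after *Pst hrcC*- outnumbered those that fell by far. A gene was called when its adjusted p was under 0.05 and its fold above 1.5 on the log2(FPKM + 1) scale, from limma with Benjamini-Hochberg adjustment over all 16665 genes. By this rule 179 genes (1.07%) were higher after *Pst hrcC*- and 2 (0.012%) were lower. In the counts of gene lists below, a gene that rose or fell is one called by this rule. With unadjusted p-values the same fold gave 620 higher (3.72%) and 143 lower (0.858%). The 3 *Pst hrcC*- values lay above all 3 mock values for 1243 genes (7.46%) and below them for 683 genes (4.1%), and this held for each of the 179 and for both of the 2. The median log2 fold change was 1.82 over the 179 genes, ranging between 0.71 and 6.60, and 0.02 over all genes. Of the 179 genes, 165 had a log2 fold change above 1, 77 above 2 and 29 above 3. Their median level was 19.6 FPKM after *Pst hrcC*- and 3.26 FPKM in mock, whereas all tested genes had a median of 5.22 FPKM in mock. The number of calls depended on single libraries, and most on 2 of them. Without *Pst hrcC*- replicate 2, 82 genes were called (79 of them among the 179), and without mock replicate 1, 97 (92 among the 179). Leaving out any other library kept 107 to 134 of the 179. A fit with all 12 libraries gave 104 higher calls, 93 of them among the 179.

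**Figure D1:**
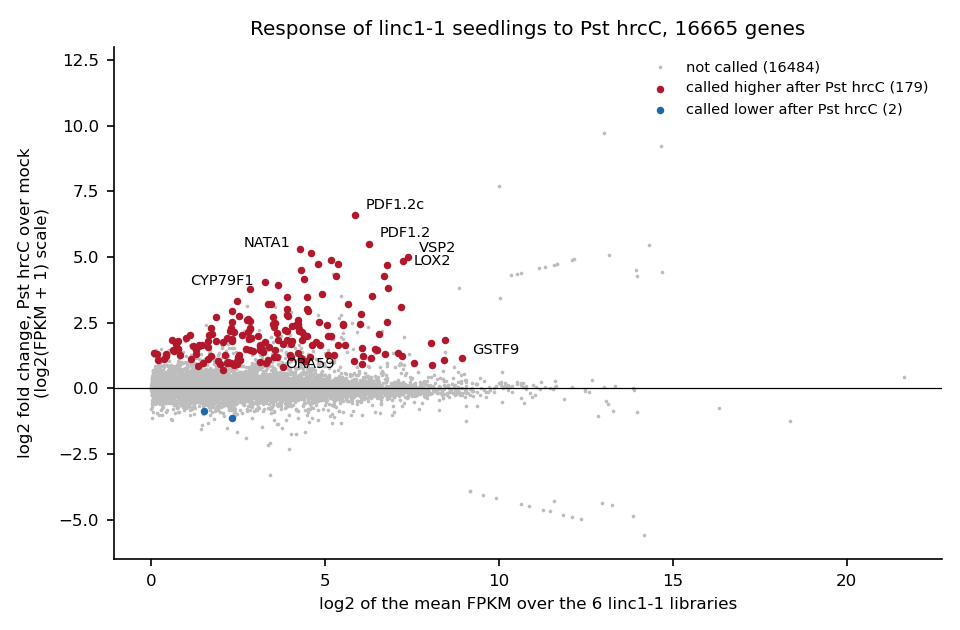
Response of each tested gene in *linc1-1*. The x axis is the log2 of the mean FPKM over the 6 libraries, the y axis the log2 fold change of *Pst hrcC*- over mock on the log2(FPKM + 1) scale, with the 179 genes called higher in red and the 2 called lower in blue. Grey points beyond 4 in either direction at high FPKM are genes listed at 0 in a library.

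Some abundant genes were listed at 0 in single libraries. In 62 genes a library at 0 stood beside another library of its group at 20 FPKM or more, and 47 of these reached over 1000 FPKM. *LHCB1.3*, a light-harvesting gene, was at 0 in *Pst hrcC*- replicate 1 and in mock replicate 3 but at 20958 to 25755 FPKM in the other 4 libraries. None of the 62 genes was called. Of the 33 genes with a change beyond 4 on the log2 scale that were not called, all 33 had such a 0.

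Promoters of the called genes held the G-box, the MYC2 motif, more often than promoters at large. The window ran from 250 bases before to 50 bases after each gene's start in the TAIR10.1 annotation of RefSeq, and both strands were read. CACGTG occurred in 41 of 179 windows (22.9%), against 1444 of 16519 over all tested genes (8.74%). The related MYC2 motif CACATG occurred in 43 (24.0%), against 12.8%. The W-box bound by WRKY factors, searched as TTGACC and TTGACT, occurred in 49 (27.4%), against 32.5%, and the ERF motif GCCGCC, added after the calls were seen, in 6 (3.35%), against 2.68%. None of these motifs contains another, and no test was made of these shares. Several named genes that MYC factors drive had no CACGTG in the window, namely *VSP2*, *VSP1*, *NATA1*, *CORI3*, *FAMT*, *CLH1*, *ARGAH2* and *JAL23*. It was also absent for *LOX2*, *AOC1*, *JAZ1*, *JAZ9* and *MYC2*. Of these genes without CACGTG, *CLH1*, *LOX2* and *JAZ9* held CACATG. Among the named genes, *AOS*, *JAZ2*, *MBP1*, *CYP83A1*, *ORA59* and the flavonoid genes *DFR*, *CHS* and *UF3GT* held CACGTG before their start. For the first 5 of these the 250 bases before the start are given 5′ to 3′ on the strand of the gene with CACGTG in capitals, since they stand for 5 different groups of called genes. They lie at chr5:17099596-17099845 (minus strand, *AOS*), chr1:28150447-28150696 (minus, *JAZ2*), chr1:19352792-19353041 (minus, *MBP1*), chr4:7992430-7992679 (minus, *CYP83A1*) and chr1:1882657-1882906 (plus, *ORA59*) of TAIR10.1.
AOS: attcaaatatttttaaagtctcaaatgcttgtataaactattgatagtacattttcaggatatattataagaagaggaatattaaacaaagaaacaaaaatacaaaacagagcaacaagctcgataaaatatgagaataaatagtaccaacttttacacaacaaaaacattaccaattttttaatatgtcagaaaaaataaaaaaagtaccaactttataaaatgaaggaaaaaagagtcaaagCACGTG
JAZ2: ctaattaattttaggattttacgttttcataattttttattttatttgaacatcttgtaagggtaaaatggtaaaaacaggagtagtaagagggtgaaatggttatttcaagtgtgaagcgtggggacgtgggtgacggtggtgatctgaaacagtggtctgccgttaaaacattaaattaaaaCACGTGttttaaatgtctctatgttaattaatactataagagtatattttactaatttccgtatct
MBP1: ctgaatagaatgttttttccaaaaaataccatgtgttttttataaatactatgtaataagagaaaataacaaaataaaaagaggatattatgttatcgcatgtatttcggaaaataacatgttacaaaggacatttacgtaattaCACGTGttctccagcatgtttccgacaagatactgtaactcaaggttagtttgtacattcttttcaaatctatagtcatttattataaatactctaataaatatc
CYP83A1: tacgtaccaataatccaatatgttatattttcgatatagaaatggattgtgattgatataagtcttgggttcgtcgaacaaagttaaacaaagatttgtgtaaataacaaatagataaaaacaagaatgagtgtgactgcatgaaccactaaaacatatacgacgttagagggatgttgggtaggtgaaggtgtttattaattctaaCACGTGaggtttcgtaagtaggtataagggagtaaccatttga
ORA59: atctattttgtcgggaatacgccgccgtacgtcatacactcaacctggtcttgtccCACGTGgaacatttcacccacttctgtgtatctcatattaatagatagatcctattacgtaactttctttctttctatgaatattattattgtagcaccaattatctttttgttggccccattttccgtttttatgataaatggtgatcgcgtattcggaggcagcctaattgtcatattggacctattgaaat
The motif began 6 bases before the start in *AOS*, 43 in *CYP83A1*, 66 in *JAZ2*, 105 in *MBP1* and 194 in *ORA59*. Its place thus ranged widely over the window.

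The early steps of JA biosynthesis were higher after *Pst hrcC*-. Of 15 tested genes of the pathway 7 rose and none fell, with a median log2 fold change of 1.06. *LOX2*, the plastid lipoxygenase that oxidises linolenic acid in the first committed step, was at 172, 153 and 550.5 FPKM in the *Pst hrcC*- libraries, against 5.48, 11.05 and 7.04 FPKM in mock. All 3 treated values lay above all mock values, and the log2 fold change was 4.84 (SE 0.48, adjusted p = 0.00592). *AOS*, the allene oxide synthase that takes the next step, was at 90.11, 79.9 and 286 FPKM, against 8.04, 14.2 and 9.51 FPKM in mock. Its log2 fold change was 3.50 (SE 0.47, adjusted p = 0.0158). The allene oxide cyclases *AOC1* and *AOC2*, neighbours on chromosome 3, rose by 4.74 (SE 0.36, adjusted p = 0.00237) and 3.82 (SE 0.29, adjusted p = 0.00237) on the log2 scale. *AOC4* rose by 1.06, and *AOC3*, with a log2 fold change of 1.28, did not pass (adjusted p = 0.118). *OPR3*, the peroxisomal reductase, was at 22.3, 20.6 and 42.9 FPKM after *Pst hrcC*-, against 4.72, 5.17 and 3.51 FPKM in mock, which gave 2.37 on the log2 scale (SE 0.28, adjusted p = 0.00899). *OPCL1*, the ligase that prepares the product for beta-oxidation, rose by 2.01. Of the later genes, *ACX1*, *KAT2* and *AIM1* of beta-oxidation had log2 fold changes of 0.62, 0.09 and 0.02, and *JAR1*, which forms JA-isoleucine, one of −0.02. None of these 4 passed. Without mock replicate 1 only 4 members were called, and *OPCL1* lost its call whichever of the 6 libraries was left out (adjusted p up to 0.128). *AOS* lost its call without mock replicate 1 (adjusted p = 0.0865) and mock replicate 3 (adjusted p = 0.0508).

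Transcripts of JAZ repressors and of JA turnover enzymes were higher, though only a part of them was called. At unadjusted p (limma) and a fold above 1.5, 10 of 11 JAZ genes and 7 of 8 turnover genes were higher. Over all genes this share was 3.72%. Among the 11 tested JAZ repressor genes 5 were called higher and none lower, with a median log2 fold change of 1.99. *JAZ1* was at 33.7, 37.5 and 52.0 FPKM after *Pst hrcC*-, against 5.19, 6.60 and 2.33 FPKM in mock (log2 fold change 2.94, SE 0.31, adjusted p = 0.00696). *JAZ9* rose by 3.01 (SE 0.33, adjusted p = 0.00789), *JAZ5* by 2.31, *JAZ6* by 2.24 and *JAZ2* by 1.99 on the log2 scale. *JAZ7*, at 2.19, had a larger log2 fold change than the called *JAZ2* but did not pass (adjusted p = 0.0520), and *JAZ11* was at 0.02. Of 8 genes that turn over the hormone, 4 rose, led by the jasmonate oxidases *JAO2* (3.47, SE 0.38, adjusted p = 0.00720) and *JAO3* (3.35, SE 0.42, adjusted p = 0.0119), with the amidohydrolase *ILL6* (1.87) and the hydroxy-JA sulfotransferase *ST2A* (1.59). *JAO4* was at 0.341, 0.132 and 26.7 FPKM after *Pst hrcC*-, against 0.0144, 0 and 0.0104 FPKM in mock. This gene thus rested on replicate 3, and it did not pass (log2 fold change 1.79, adjusted p = 0.972). Of the perception genes and bHLH factors 1 of 9 rose, *MYC2*, at 63.1, 63.2 and 107 FPKM after *Pst hrcC*-, against 13.6, 17.05 and 9.004 FPKM in mock (log2 fold change 2.46, SE 0.28, adjusted p = 0.00816). *MYC3*, *MYC4* and the receptor gene *COI1* had log2 fold changes of 0.21, −0.04 and −0.10. *MYC2* overlaps AT1G32630 on the other strand over 3241 bases, and whether the counting used strand is not stated in the sources used here. AT1G32630 itself had a log2 fold change of 0.06. *MYC2* was not called in the fit of all 12 libraries (adjusted p = 0.0575) or with a replicate block (adjusted p = 0.0573). Calls numbered 2 JAZ genes and 1 turnover gene without *Pst hrcC*- replicate 2, 3 and 1 without mock replicate 1, and 3 JAZ genes without mock replicate 2 or 3. *JAZ2* and *JAZ5* each lost the call in 4 of the 6 fits that left out 1 library (adjusted p up to 0.108 and 0.182), *ST2A* in 4 (up to 0.152), *JAO3* in 3 (up to 0.0674), *ILL6* in 2 (up to 0.0734) and *JAZ9* in 1 (0.0615).

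The list of genes that MYC factors drive had the highest median of the 25 lists. Of 11 tested genes 9 rose and none fell, with a median log2 fold change of 4.28. *VSP2*, a vegetative storage protein and acid phosphatase, was at 249, 323 and 408 FPKM after *Pst hrcC*-, against 7.30, 10.3 and 9.37 FPKM in mock. Its log2 fold change was 5.02 (SE 0.21, adjusted p = 0.000150). Next to it on chromosome 5, *VSP1* was at 157, 186 and 296 FPKM after *Pst hrcC*-, against 7.61, 9.29 and 4.83 FPKM in mock (log2 fold change 4.68, SE 0.29, adjusted p = 0.00118). *NATA1*, an acetyltransferase that makes N-acetylornithine, was at 28.5, 19.8 and 94.7 FPKM, against 0.266, 0 and 0.0279 FPKM in mock. *CORI3*, a cystine lyase induced by coronatine, was at 34.99, 44.0 and 133 FPKM, against 0.873, 1.56 and 0.770 FPKM in mock. These rises were 5.15 (SE 0.51, adjusted p = 0.00584) for *NATA1* and 4.88 (SE 0.46, adjusted p = 0.00543) for *CORI3* on the log2 scale. The chlorophyllase *CLH1* (4.28), the arginase *ARGAH2* (4.18) and the lectins *JAL23* (3.78) and *JR1* (1.65) rose as well. *FAMT*, a carboxyl methyltransferase, was at 13.1, 12.1 and 92.5 FPKM after *Pst hrcC*-, against 0, 0.486 and 0 FPKM in mock. Its call (log2 fold change 4.50, adjusted p = 0.0300) was lost in 5 of the 6 fits that left out 1 library, with adjusted p up to 0.142. The NAC factors *NAC055* and *NAC072* had log2 fold changes of 1.17 and 0.41 and did not pass. *JR1* overlaps *JAL34* on the other strand over 631 bases.

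The ERF branch held the single largest rise. Of 8 tested genes 4 rose and none fell, with a median of 2.499. *PDF1.2c*, a plant defensin, was at 143, 121 and 84.4 FPKM after *Pst hrcC*-, against 0.0832, 0.511 and 0 FPKM in mock (log2 fold change 6.60, SE 0.24, adjusted p = 6.49e-05). *PDF1.2*, the adjacent copy, was at 161, 171 and 119 FPKM, against 3.40, 6.52 and 0.0701 FPKM in mock (5.51, SE 0.63, adjusted p = 0.00816). *PDF1.2b*, on chromosome 2, was at 74.6, 69.9 and 17.62 FPKM, against 1.27, 1.39 and 0 FPKM in mock (4.72, SE 0.58, adjusted p = 0.0103). The 3 defensin transcripts share between 0.566% and 5% of their 50-base stretches with other genes. *ORA59*, the ERF factor that acts on *PDF1.2*, was at 21.8, 20.6 and 11.1 FPKM after *Pst hrcC*-, against 5.53, 4.93 and 6.19 FPKM in mock (1.47, SE 0.25, adjusted p = 0.0416). *PDF1.3*, *PR4* and *PR3* had log2 fold changes of 3.52, 1.2999 and 0.26 without passing. Only 1 member was called in the fit of all 12 libraries. Without *Pst hrcC*- replicate 2 only *PDF1.2c* was called, as *PDF1.2* and *PDF1.2b* had adjusted p = 0.0674 and 0.0734. *ORA59* lost its call in 5 of the 6 fits that left out 1 library (adjusted p up to 0.188).

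**Figure D2:**
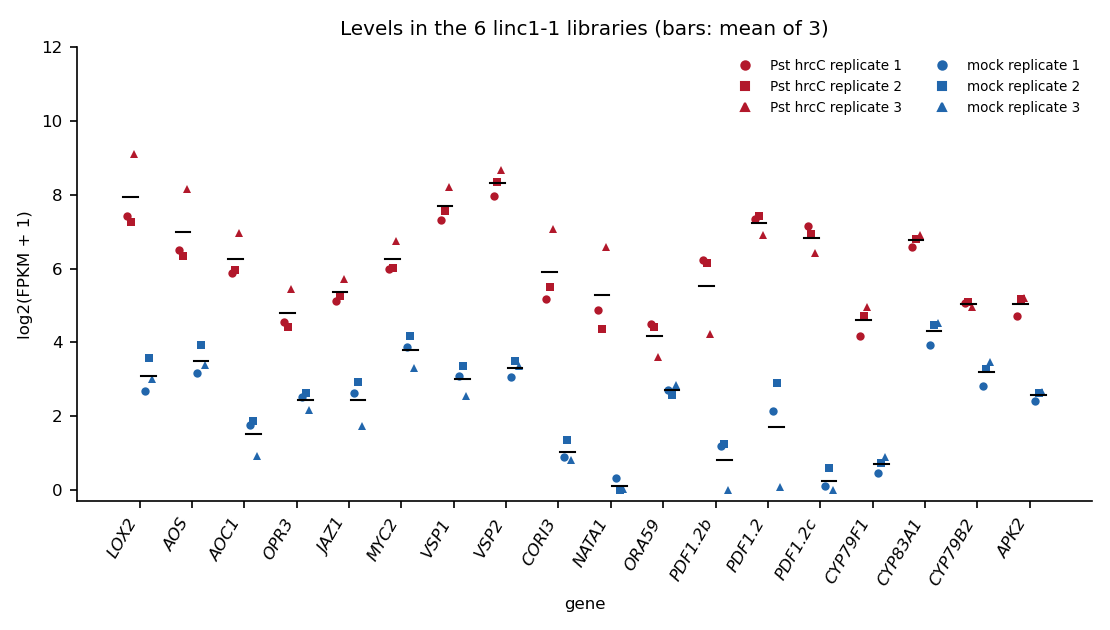
Levels of 18 called genes in the 6 *linc1-1* libraries, as log2(FPKM + 1), with *Pst hrcC*- in red to the left of mock in blue, a marker shape for each replicate number and a bar at the mean of 3. *Pst hrcC*- replicate 3 (triangle) was the highest red point for *LOX2*, *CORI3* and *NATA1*, and the lowest for *ORA59* and the 3 defensins.

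The 3 *Pst hrcC*- libraries did not rank alike in these groups. Replicate 3 held the highest value for all 7 called JA biosynthesis genes, all 5 JAZ genes, all 4 turnover genes and all 9 genes of the MYC branch, and the lowest for all 4 of the ERF branch. Of all 179 genes, it was highest for 118 (65.9%), whereas it was the highest *Pst hrcC*- library for 30.6% of all tested genes. Over all tested genes replicate 2 was highest most often, for 9425 of 16665. Its median level was 5.86 FPKM, against 4.96 and 5.37 FPKM in replicates 1 and 3. Summed over the tested members, the MYC branch was at 695, 846 and 1612 FPKM after *Pst hrcC*-, against 65.3, 73.7 and 52.3 FPKM in mock. The ERF branch was at 669, 669 and 416 FPKM after *Pst hrcC*-, against 114, 120 and 54.6 FPKM in mock. In both branches every treated library stood above every mock library. Without *Pst hrcC*- replicate 3, 155 genes were called higher.

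Of the 25 lists, that of aliphatic GS genes held the most called genes, while JA genes were spread over several lists. Of 23 tested aliphatic GS genes 18 rose and none fell, with a median log2 fold change of 1.80. *CYP79F1*, which converts chain-elongated methionine to aldoximes, was at 17.04, 25.3 and 30.4 FPKM after *Pst hrcC*-, against 0.372, 0.665 and 0.882 FPKM in mock. Its log2 fold change was 3.92 (SE 0.23, adjusted p = 0.000891). *CYP83A1*, the next cytochrome P450, was at 94.4, 111 and 119 FPKM, against 14.2, 21.1 and 21.9 FPKM in mock (2.46, SE 0.19, adjusted p = 0.00259). The chain-elongation genes *BCAT4* (3.03, SE 0.21, adjusted p = 0.00206), *IPMI1* (2.54), *IMD1* (2.33), *MAM1* (2.18), *IPMI2* (2.01) and *MAM3* (0.97) all rose. So did the conjugation and sulfation genes *GSTF11* (2.72), *GSTU20* (2.07), *SOT17* (1.69) and *SOT18* (1.67), and the side-chain oxygenases FMO GS-OX1 and FMO GS-OX3 (both 1.80). Of the MYB regulators, *MYB76* and *MYB29* rose by 1.83 and 1.59 on the log2 scale, and *MYB28* was at 0.53 without passing (adjusted p = 0.359). On the other strand *BCAT4* overlaps *IKU2* over 307 bases, and *GSTF11* overlaps *NAC045* over 1096 bases, its whole length. The list's calls numbered 8 without *Pst hrcC*- replicate 2, 10 without mock replicate 1 and 7 in the fit of all 12 libraries.

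Fewer of the indole GS genes were called, though 13 of 16 were higher at unadjusted p (limma) and a fold above 1.5. Of 16 tested genes 6 rose and none fell, with a median log2 fold change of 0.98. *CYP79B2*, which makes indole-3-acetaldoxime from tryptophan, was at 32.3, 33.1 and 30.2 FPKM after *Pst hrcC*-, against 6.14, 8.79 and 10.0 FPKM in mock (1.84, SE 0.18, adjusted p = 0.00559). *CYP79B3*, which does the same step, rose by 1.65 (SE 0.17, adjusted p = 0.00596), *GGP1* by 1.65, *UGT74B1* by 1.28 and *CYP83B1* by 1.22. *GSTF9* was among the most abundant called genes, at 684, 683 and 647 FPKM after *Pst hrcC*-, against 292, 322 and 288 FPKM in mock (1.16, SE 0.15, adjusted p = 0.0119). The regulator *MYB51* had a log2 fold change of −0.36 (adjusted p = 0.799), and *MYB34* one of 0.99 (adjusted p = 0.101). In the tryptophan and camalexin list 2 of 9 genes rose, both subunits of anthranilate synthase, *ASA1* by 1.08 (SE 0.12, adjusted p = 0.00809) and *ASB1* by 0.91 (SE 0.15, adjusted p = 0.0403). *PAD3*, the last enzyme of camalexin synthesis, was at 0.45 without passing. Of *ASB1*, 31.5% of its 50-base stretches also occur in other genes, and it lost its call whichever of the 6 libraries was left out (adjusted p up to 0.158). *GSTF9* lost its call in 4 of those 6 fits (up to 0.0858) and *UGT74B1* in 3 (up to 0.0845). In the fit of all 12 libraries 2 indole GS genes were called, *CYP79B3* and *GGP1*, and *CYP79B2*, *CYP83B1* and *GSTF9* had adjusted p of 0.196, 0.206 and 0.396. That fit called 1 gene of the tryptophan and camalexin list.

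Some genes of GS breakdown and of sulfur supply were called as well. Of 10 tested breakdown genes 4 rose and none fell, with a median log2 fold change of 0.88, and 3 that were not called had negative values down to −0.38 (*NSP5*). The 4 were the myrosinase-binding proteins *MBP1* (3.47, SE 0.49, adjusted p = 0.0198) and *MBP2* (2.199, SE 0.25, adjusted p = 0.00816), the epithiospecifier *ESP* (1.93, SE 0.18, adjusted p = 0.00557) and the nitrile specifier *NSP1* (1.35, SE 0.21, adjusted p = 0.0320). Of *NSP1*, 29.9% of its 50-base stretches also occur in other genes. The myrosinases *TGG1* and *TGG2* had log2 fold changes of 0.52 and 0.84 and did not pass. Of 7 sulfate assimilation genes 4 rose and none fell, with a median of 1.303. *APK2*, an APS kinase that supplies the sulfate donor for GS, was at 25.1, 35.2 and 36.1 FPKM after *Pst hrcC*-, against 4.30, 5.22 and 5.38 FPKM in mock (2.46, SE 0.17, adjusted p = 0.00206). *APR1* (1.82), *APS1* (1.45) and *APS3* (1.29) rose too. Of 7 flavonoid genes 4 rose, *DFR* (1.90), *LDOX* (1.51), *CHS* (1.36) and *UF3GT* (1.35), and *FLS1* was at 0.15. Breakdown genes called numbered 2 without *Pst hrcC*- replicate 2, mock replicate 1 or mock replicate 2. *NSP1* lost its call whichever of the 6 libraries was left out (adjusted p up to 0.146), *MBP1* without 3 of them (up to 0.104) and *LDOX* without *Pst hrcC*- replicate 2 (0.0519). In the fit of all 12 libraries no flavonoid gene was called and 2 sulfate genes were, *APK2* and *APS3*, as *APR1* and *APS1* had adjusted p = 1.00 and 0.106. That fit also takes its spread from WT, where replicate 1 stood apart in some of these genes. *LDOX* was at 15.8, 0.0945 and 0.343 FPKM in WT after *Pst hrcC*-, and *APR1* at 19.8, 1.81 and 1.46 FPKM in WT mock.

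The other 13 lists held no called gene. No member passed among 25 PTI genes (median log2 fold change 0.11), 19 ET genes (−0.06), 8 SA synthesis genes (−0.02) or 4 SA output genes (0.43). At unadjusted p (limma) and the same fold 2, 1, 0 and 2 members of these 4 lists were higher and none was lower. The largest change among PTI genes was that of *RBOHD*, the oxidase of the ROS burst, at 6.53, 8.44 and 6.09 FPKM after *Pst hrcC*-, against 4.27, 3.58 and 3.62 FPKM in mock. Its groups did not overlap, but the log2 fold change of 0.73 did not pass (SE 0.15, adjusted p = 0.0986). *FLS2*, the flagellin receptor, had a log2 fold change of −0.32 and *WRKY33* one of 0.32. In the ET list *ERF2* was highest at 1.599 (SE 0.35, adjusted p = 0.122). Of 14 SA synthesis and 11 SA output genes listed, only 8 and 4 averaged 1 FPKM or more and were tested. The SA marker *PR1* was below 1 FPKM in all 6 libraries and was not tested, and neither was *FRK1*. *PR5* and *GRX480* had log2 fold changes of 1.21 and 1.52 (adjusted p = 0.200 and 0.206). *SAG101* had the largest change among SA synthesis and regulator genes, −0.44 (adjusted p = 0.511). No gene was called either in the lists of abscisic acid and cold (8 genes), cell cycle (11), clock (6), the LINC family and nuclear envelope (7), green tissue (7), root tissue (4), touch (3), heat shock (1) or the reference genes *ACT2* and *UBQ10*. For these 9 lists the list medians lay between −0.998 for touch and 0.29 for root tissue. At unadjusted p 2 genes of abscisic acid and cold and 1 of root tissue were higher, 2 touch genes were lower, and no other member of the 9 passed.

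**Figure D3:**
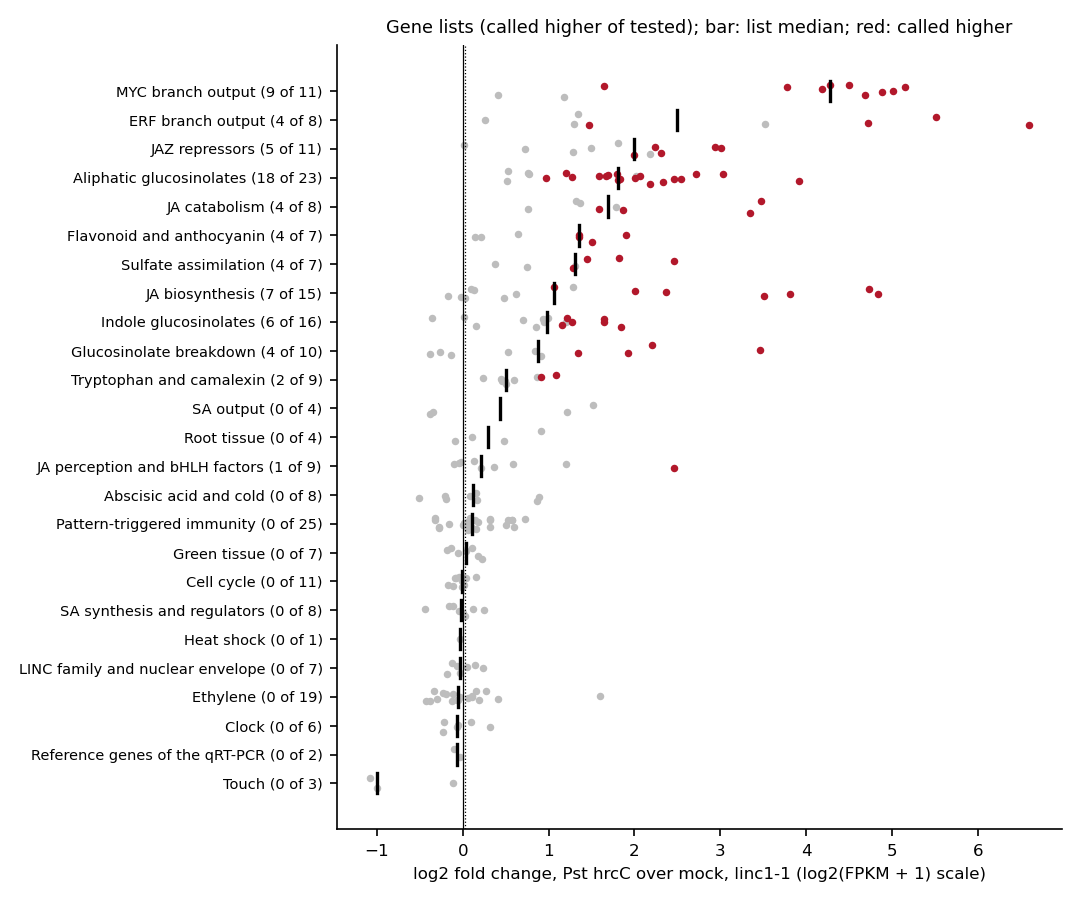
Log2 fold change of *Pst hrcC*- over mock for each tested member of 25 gene lists, ordered by list median (black bar), with called members in red and the count called higher of those tested beside each name. The dotted line is the median of all genes, 0.02. Of these lists, only those of JA, GS, sulfate, tryptophan and flavonoid genes hold called members. The lists were written with earlier results of these data known, and most genes called higher are in none of them.

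Within *linc1-1*, 2 of 3 touch genes were high in mock replicates 1 and 2 alone. *TCH3*, a calmodulin-like protein, was at 24.4, 18.9 and 23.9 FPKM after *Pst hrcC*-, against 74.2, 64.5 and 23.1 FPKM in mock. *TCH4*, a xyloglucan endotransglucosylase, was at 42.4, 42.0 and 37.2 FPKM, against 134, 103 and 39.6 FPKM in mock. Mock replicate 3 thus lay with the treated libraries. The third gene, *TCH2*, had a log2 fold change of −0.11. In WT, *TCH3* was at 71.7 to 124 FPKM after *Pst hrcC*- and at 104 to 128 FPKM in mock. In *linc1-1* neither gene passed (log2 fold change −1.08, adjusted p = 0.534, for *TCH3* and −0.998, adjusted p = 0.616, for *TCH4*). Without mock replicate 3 both were called lower, at −1.59 (adjusted p = 0.0137) and −1.51 (adjusted p = 0.0165), among 35 genes called lower in place of 2. Genes called higher numbered 160 in that fit. The part of handling in the results was not tested.

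**Figure D4:**
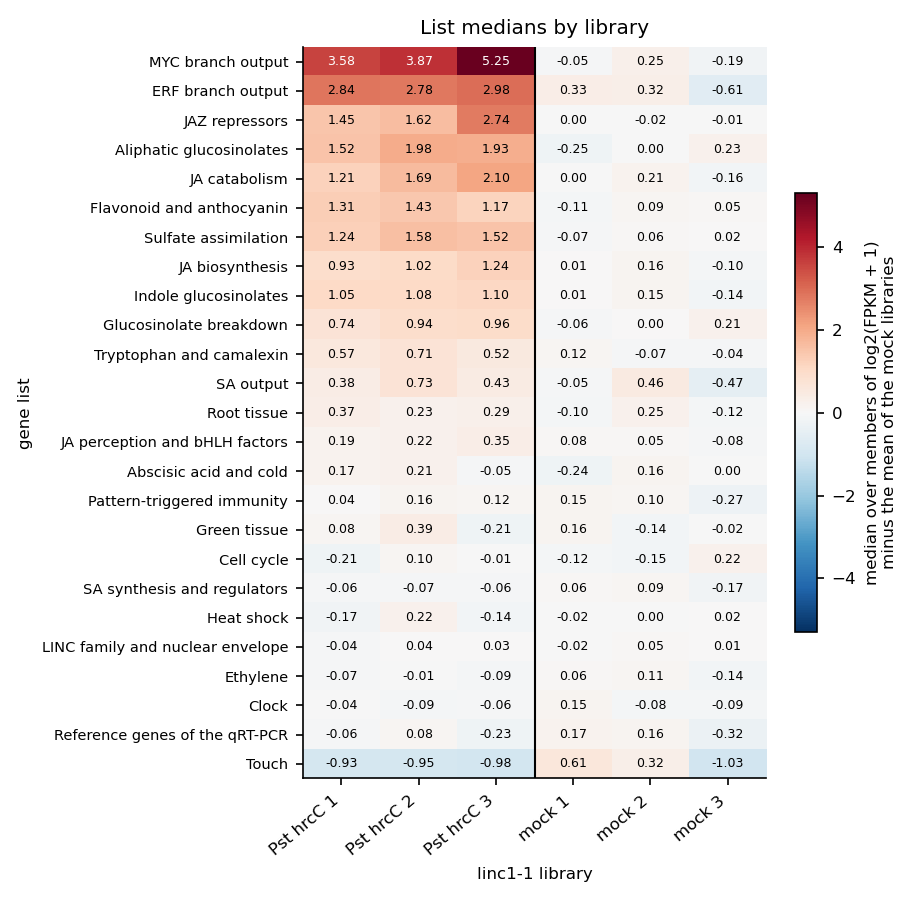
Median over the tested members of each gene list of log2(FPKM + 1) minus the mean of the 3 mock libraries, for each *linc1-1* library, with *Pst hrcC*- to the left of mock. The MYC branch reached 5.25 in *Pst hrcC*- replicate 3, and the touch list lay at −1.03 in mock replicate 3, near its 3 values after *Pst hrcC*-.

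The 2 genes called lower carry no symbol and are named after their values were seen. AT2G28780, annotated as a subunit of a p-hydroxybenzoic acid efflux pump, was at 3.14, 3.20 and 2.04 FPKM after *Pst hrcC*-, against 6.90, 7.96 and 6.82 FPKM in mock (log2 fold change −1.13, SE 0.16, adjusted p = 0.0224). AT3G55900, an F-box gene, was at 1.498, 1.88 and 1.71 FPKM, against 4.33, 4.24 and 3.31 FPKM in mock (−0.87, SE 0.14, adjusted p = 0.0397). It overlaps AT3G55890 on the other strand. Neither of the 2 genes was called in 4 of the 6 fits that left out 1 library, and 1 of them was called without *Pst hrcC*- replicate 3 and 1 without mock replicate 3. Those 2 fits called 3 and 35 genes lower, and the other 4 called 0 or 1. In the fit of all 12 libraries neither was called.

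Called genes often lay side by side. Of the 179 genes 32 (17.9%) had another of them as the next protein-coding gene, against 230 of 16515 tested genes (1.39%) with a called neighbour. They formed 15 runs, among them *AOC1* and *AOC2*, *VSP1* and *VSP2*, *PDF1.2* and *PDF1.2c*, *MAM1* and *MAM3*, *MYB29* and *MYB76*, *CYP79F1* and *CYP79F2*, *MBP1* and *MBP2*, and *APK2* with *CYP79B2*. The longest was the thalianol cluster of 4 genes on chromosome 5, where *THAS1*, the cyclase that makes the triterpene thalianol, was at 4.35, 6.16 and 6.62 FPKM after *Pst hrcC*-, against 0.389, 1.17 and 0.395 FPKM in mock (log2 fold change 2.04, SE 0.23, adjusted p = 0.00789). Its neighbours *CYP705A5*, *CYP708A2* and the acyltransferase gene AT5G47980 rose by 2.60, 1.79 and 1.41 on the log2 scale. This run and the others were found after the calls were known.

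The response could not be shown to differ from that of WT for any single gene. The difference of the log2 fold changes, *linc1-1* minus WT, was tested in one fit of all 12 libraries, and 0 of 16665 genes passed. At unadjusted p and the same fold 242 genes (1.45%) responded more and 87 (0.522%) less in *linc1-1*. In that fit 29 genes (0.174%) were called higher in WT and 0 lower (182 lower at unadjusted p). Of these 29, 25 (86.2%) were among the 179, which makes 14.0% of the 179. The 179 came from the fit of the *linc1-1* libraries alone, and the fit of all 12 called 104 genes higher in *linc1-1*. The 14.0% thus sets calls of unlike fits side by side. The median difference over all genes was 0.12 and became 0.01 with size-factor scaling, a shift that applies to each difference given next. Of the 179 genes, 175 had a positive log2 fold change in WT, with a median of 1.03, and the median difference was 0.81 (0.67 with size-factor scaling). The 179 were chosen by their response in *linc1-1*, so this difference is a description.

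**Figure D5:**
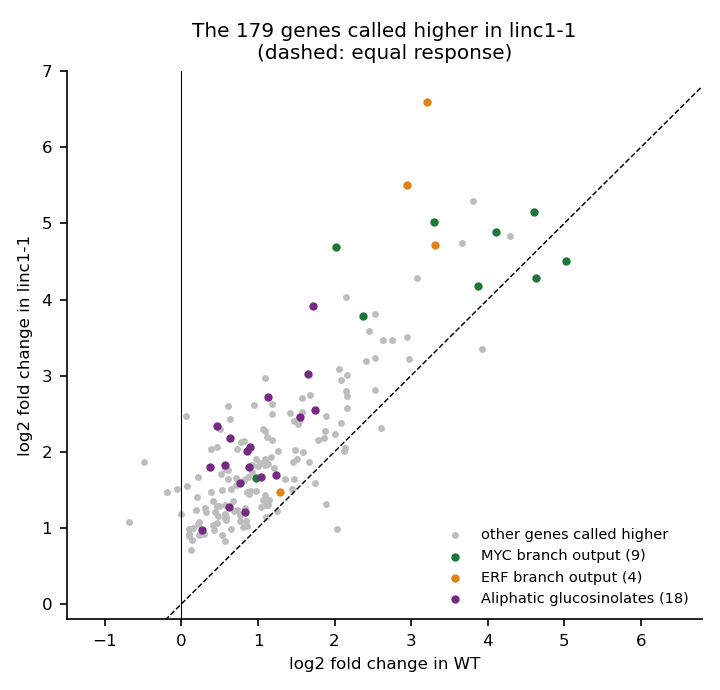
Log2 fold change of *Pst hrcC*- over mock in *linc1-1* (y axis) and in WT (x axis) for the 179 genes called higher in *linc1-1*, with 3 gene lists in color and a dashed line of equal response. Most points lie right of 0 and above the dashed line, where the choice of genes by their *linc1-1* value also places them.

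Aliphatic GS genes leaned one way in this comparison. All 23 had a larger log2 fold change in *linc1-1* than in WT, with list medians of 1.80 and 0.84 and a median difference of 0.91. The median difference was 0.77 with size-factor scaling and 0.73 without both WT replicate 1 libraries, and all 23 differences were positive in both. Over all tested genes 11265 of 16665 differences were positive, and so were all 11 of the cell cycle list, all 8 of abscisic acid and cold and all 6 of the clock, with medians of 0.41, 0.49 and 0.93 that were 0.16, 0.16 and 0.19 without WT replicate 1. None passed the adjusted test, and 6 of 23 were larger at unadjusted p. *CYP79F1* rose by 3.92 in *linc1-1* and had a log2 fold change of 1.72 in WT, a difference of 2.196 (unadjusted p = 0.0316, limma). For *GSTF11*, which overlaps *NAC045* on the other strand, the values were 2.72 and 1.13, a difference of 1.59 (unadjusted p = 0.00335, limma). In the ERF branch all 8 differences were positive, with a median of 0.95, which became 2.39 without WT replicate 1. Larger at unadjusted p (limma) were 0 of these 8 genes with that replicate and 6 without it. Over all tested genes these counts were 242 and 355 of 16665. *PDF1.2c* was at 265, 21.6 and 5.80 FPKM in WT after *Pst hrcC*-, against 0.109, 5.99 and 5.73 FPKM in mock. Leaving out WT replicate 1 thus removed the treated WT library with the highest level of this gene, and no conclusion is drawn from the 6. JAZ genes had medians of 1.99 in *linc1-1* and 1.87 in WT, and genes of JA turnover 1.69 and 1.73, with 3 of 8 differences positive (5 of 8 without WT replicate 1). *VSP1* showed a difference of 2.67 (log2 fold changes of 4.68 and 2.02, unadjusted p = 0.000343, limma) and *VSP2* one of 1.72 (5.02 and 3.30, unadjusted p = 0.00934, limma), but *CLH1* and *FAMT* had smaller log2 fold changes in *linc1-1*, with differences of −0.35 and −0.52. Adjusted over all genes, none of these passed.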

How the data were processed

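Whole-seedling RNA of 12 libraries (3 per group) was sequenced as paired ends. The FPKM were computed by the authors and deposited as 1 table per line. Their processing notes name FastQC, TopHat2 2.1.1, Cufflinks 2.2.1 and TAIR10, and other versions of the aligner and assembler stand in the study's methods. FPKM divides by transcript length and mapped fragments, and whole reads and depth cannot be read back from it, so no count test was run.

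For the 16665 genes that averaged 1 FPKM or more in the 6 *linc1-1* libraries, log2(FPKM + 1) was tested with limma 3.58.1 (trend) in R 4.3.3 on those libraries, and the difference from WT in a fit of all 12. P-values were adjusted over all 16665 genes (Benjamini-Hochberg), and a gene was called at a fold above 1.5 with adjusted p below 0.05. FPKM were not scaled further. The 3 replicates per group are independent repeats according to the study. The libraries were not treated as pairs by replicate number, and the section on processing gives the correlations.

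Named genes were *LINC1*, the 15 largest rises and falls among called genes that had a symbol, averaged 5 FPKM or more and did not overlap between groups, at most 6 called members per list (or the largest change where none was called), and 7 fixed markers. Other genes were named after their values were seen. Members and lists were chosen with earlier results of these data known. Gene names and promoters came from the TAIR10.1 annotation of RefSeq, which held 16520 of the 16665 genes. Alternatives covered the pseudocount, the minimum FPKM, scaling, the libraries fitted, library weights, a replicate block and leaving out each library.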

Additional observations from a re-analysis of the deposited data

How the results depend on the processing

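Most results kept their direction. Of 995 recomputed values of 67 named genes, 870 kept direction and side of the threshold, 119 lost the call, 3 gained one and 3 changed sign, all in 2 genes that were never called, as leaving out 1 library gave −0.15 to 0.041 for *HSP101* and −0.0072 to 0.44 for *LHCA1*. Of 54 called named genes, 36 were called in all 6 fits that left out 1 library and 23 under all 15 alternatives. The 181 calls (179 higher, 2 lower) became 107 (106 and 1) with no minimum FPKM and 104 (104 and 0) in the fit of all 12 libraries. Genes called lower numbered 1 with a pseudocount of 5 FPKM, 1 with a minimum of 5 FPKM, 5 with quantile normalization and 14 with library weights. Leaving out each library gave 82 to 195 calls, 82 to 160 higher and 0 to 35 lower. Leaving out a library or testing more genes lowers the power of a fit. The fit of all 12 libraries does neither, but takes its spread from the WT libraries as well. The part of that spread in its lower number of calls was not tested, nor was any other cause. Same-numbered libraries correlated at 0.016, −0.054 and 0.186 in their deviations from the group means, and libraries of different numbers at −0.150 to 0.161. Whether the libraries were paired cannot be told from these values. A replicate block gave 145 calls (141 higher, 4 lower), 117 of them among the 181. For the difference between lines, 2 genes were called with no minimum and 0 to 2 when 1 library was left out. Without *Pst hrcC*- replicate 3 of *linc1-1*, *JAO4* was called at −3.70 (adjusted p = 0.0116, limma). AT3G25014 was called in that fit at 4.83 (adjusted p = 0.0102, limma). Depth is unknown, so low FPKM have no counting interval.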

Other observations

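Several families outside the lists also held called genes, and they were chosen after their values were seen. Methionine sulfoxide reductases, which repair oxidised methionine, had 4 of 13 tested members called higher, *MSRB7* (log2 fold change 2.5003), *PMSR2* (1.85), *MSRB9* (1.77) and *MSRB6* (1.51), but the family median was 0.36. Of *MSRB7*, 22.2% of its 50-base stretches also occur in other genes. Besides the PDF1.2 genes, 3 other defensin-like or knottin genes rose. AT2G43550 among them was at 164, 161 and 243 FPKM after *Pst hrcC*-, against 33.0, 34.5 and 27.5 FPKM in mock, with no overlap (log2 fold change 2.52, SE 0.20, adjusted p = 0.00259, limma). AT4G22214 rose by 2.47 and AT2G43535 by 1.29 on the log2 scale. Both annexins *ANNAT4* (2.15) and *ANNAT3* (1.63), which lie side by side, were called out of 5 tested.

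*BGLU18*, a beta-glucosidase of endoplasmic reticulum bodies, was at 61.6, 72.4 and 141 FPKM after *Pst hrcC*-, against 6.399, 7.01 and 12.5 FPKM in mock (log2 fold change 3.22, SE 0.35, adjusted p = 0.00720, limma). Its neighbour AT1G52410 rose by 2.57 (SE 0.44, adjusted p = 0.0485, limma). *DHAR1*, a dehydroascorbate reductase, was at 459, 511 and 653 FPKM after *Pst hrcC*-, against 145, 181 and 127 FPKM in mock (1.83, SE 0.20, adjusted p = 0.00789, limma), and 13.7% of its 50-base stretches also occur in other genes. Among sulfur-related genes *LSU3*, which responds to low sulfur, rose by 2.96 (SE 0.26, adjusted p = 0.00385, limma). AT1G21528 was listed at 0 in all 3 mock libraries and at 37.1, 44.1 and 34.6 FPKM after *Pst hrcC*-.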
